A study of Rattus norvegicus with 6 samples.

Results

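The genes described here encode the nuclear-encoded subunits of respiratory complexes II to V and cytochrome c, measured in the rat hippocampus. They were chosen by symbol: RefSeq rat genes whose symbol starts with Sdh and a letter from a to d, Uqcr, Cox4 to Cox8 or Atp5, without the muscle subunit Cox6a2, together with Cyc1 and Cycs. Of 125 genes with such a symbol, 61 of them pseudogenes, 44 had a probe on the array, among 15168 named genes with a probe. They comprised 4 genes of complex II, 8 of complex III, 1 for cytochrome c, 16 of complex IV and 15 of complex V. A total of 43 had a tested probe, and all 43 were well above background on all 6 arrays. Cox8c, the testis form of a complex IV subunit, was well above background on 0 of 6 arrays and was not tested. Cyc1, Cox7a1, Cox7b2, Atp5mc3 and Atp5mf are among 21 genes for which no probe was matched, and they were not analysed here. Cox6c-ps1 is annotated as a transcribed pseudogene and was taken by the symbol rule. Where a gene had more than 1 probe (9 genes), the probe with the highest mean signal stands for it.

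Hippocampal RNA of adult male SD (Sprague Dawley) rats was compared between AD (3 samples, Aβ1-42 oligomers injected into the cerebral ventricles) and Sham (3 samples, vehicle injected in the same way). Both groups had brain surgery, the model rests on an injection and not on a transgene, and the time from injection to tissue collection is not given in the sources used here. The sources do not say which animal each sample came from, so the p-values measure only the spread between these samples, which may be technical. Each sample was hybridised to a single-colour array, and the number of arrays limits the precision.

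Oxidative phosphorylation takes place in the inner mitochondrial membrane. Complex II (succinate dehydrogenase) passes electrons from succinate to ubiquinone, complex III passes them from ubiquinol to cytochrome c, and complex IV (cytochrome c oxidase) hands them to oxygen. Complexes III and IV pump protons, and complex V (ATP synthase) uses the proton gradient to make ATP. Complexes III to V also hold subunits encoded by mitochondrial DNA, for which no probe was matched here. Neurons depend heavily on this pathway because they spend much ATP on restoring ion gradients after firing.

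Levels are log2 processed signals relative to the array's 75th percentile, and a change is AD minus Sham on the log2 scale with its SE. A gene was called when its limma p, Benjamini-Hochberg adjusted over all 22766 tested probes, was under 0.05. Because the rule names both scalings, each member's change is also given after quantile normalization, which gives all arrays the same distribution of signals. The 75th percentile of the signal was 795 to 932 on the AD arrays, 753 and 755 on Sham replicates 1 and 2, and 429 on Sham replicate 3. The AD arrays were read in 1 scan, Sham replicates 1 and 2 in a second scan of the same day, and Sham replicate 3 in a scan on another day, so scan and group cannot be told apart.

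Under 75th-percentile scaling, 8 of the 43 members fell in AD and 0 rose. Those that fell were Uqcr10 of complex III, Cycs, Cox7a2l and Cox7b of complex IV, and Atp5f1a, Atp5pb, Atp5pd and Atp5mk of complex V. The 8 were 18.6% of the members, beside 8.4% of all tested probes called lower and 4.15% called higher. The median change of the members was -0.28, against -0.01 over all tested probes and -0.05 over 11940 named genes with 1 probe each, and 34 of the 43 were below 0. Under quantile scaling, 3 members fell (Atp5pb, Cycs and Atp5mk, all among the 8) and 0 rose. That was 6.98% of the members, beside 6.87% of all tested probes called lower and 4.26% called higher, so the share of members called lay at the background. Their median change there was -0.06 against 0.00 over all tested probes and -0.03 over the named genes, with 25 of 43 below 0.

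The plot of both scalings shows that quantile scaling moved most members upward. The difference between the scalings ranged from -0.03 to 0.29 among the members with a median of 0.20. A total of 25 members were below 0 under both scalings, 9 were above 0 under both, and 9 were below 0 only under the 75th percentile.

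**Figure D1:**
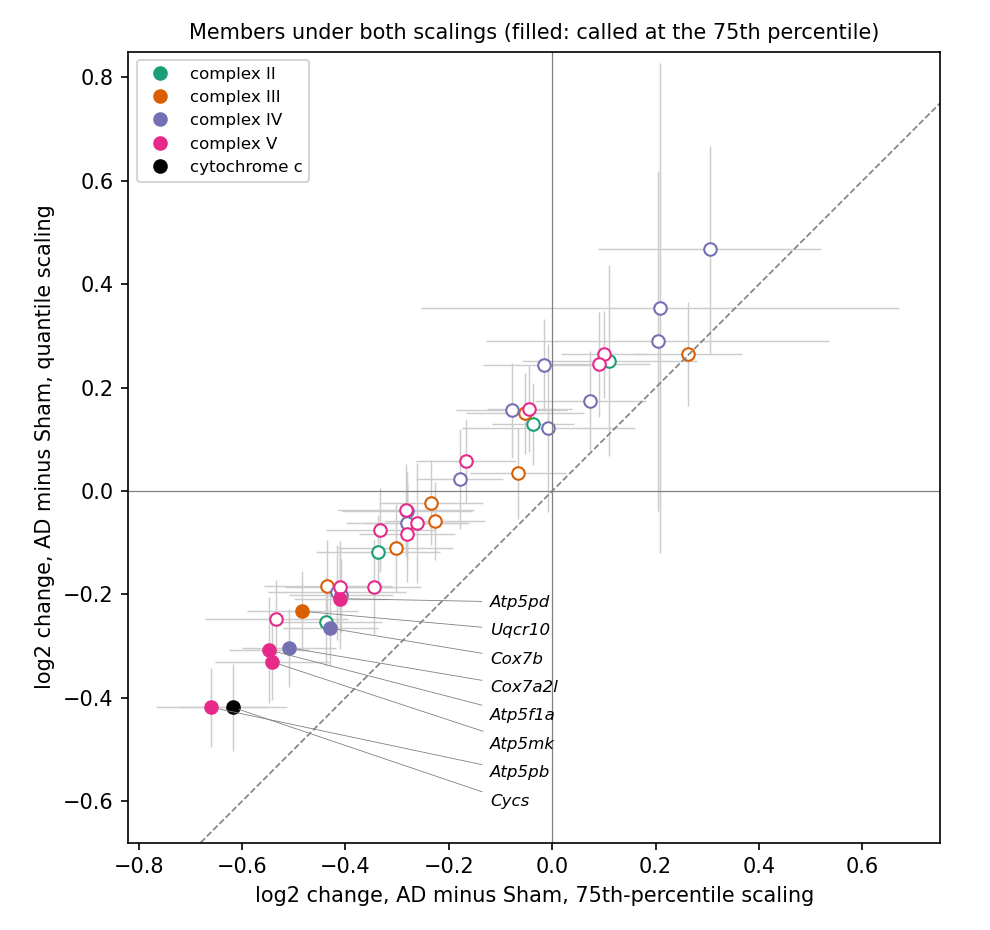
Log2 change (AD minus Sham) of 42 of the 43 tested members under 75th-percentile scaling (x axis) and quantile scaling (y axis), coloured by complex, with SE bars. Filled points are the 8 members called under 75th-percentile scaling, the dashed line marks equal values, and Cox8b (1.82 and 1.79) is left out. Most points lie about 0.20 above the line.

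The members gave bright signals, and 38 of the 43 lay in the brightest 4553 of the tested probes. Under 75th-percentile scaling, the median change of those 4553 probes was -0.17, and 18.1% of them were called lower, beside 18.6% of the members. Among the 4554 dimmest probes the median change was 0.06. Under quantile scaling the brightest probes had a median change of 0.00, and 9.71% of them were called lower. Brightness here is a property of the probe signal and is not a comparison of mRNA amounts between genes.

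**Figure D2:**
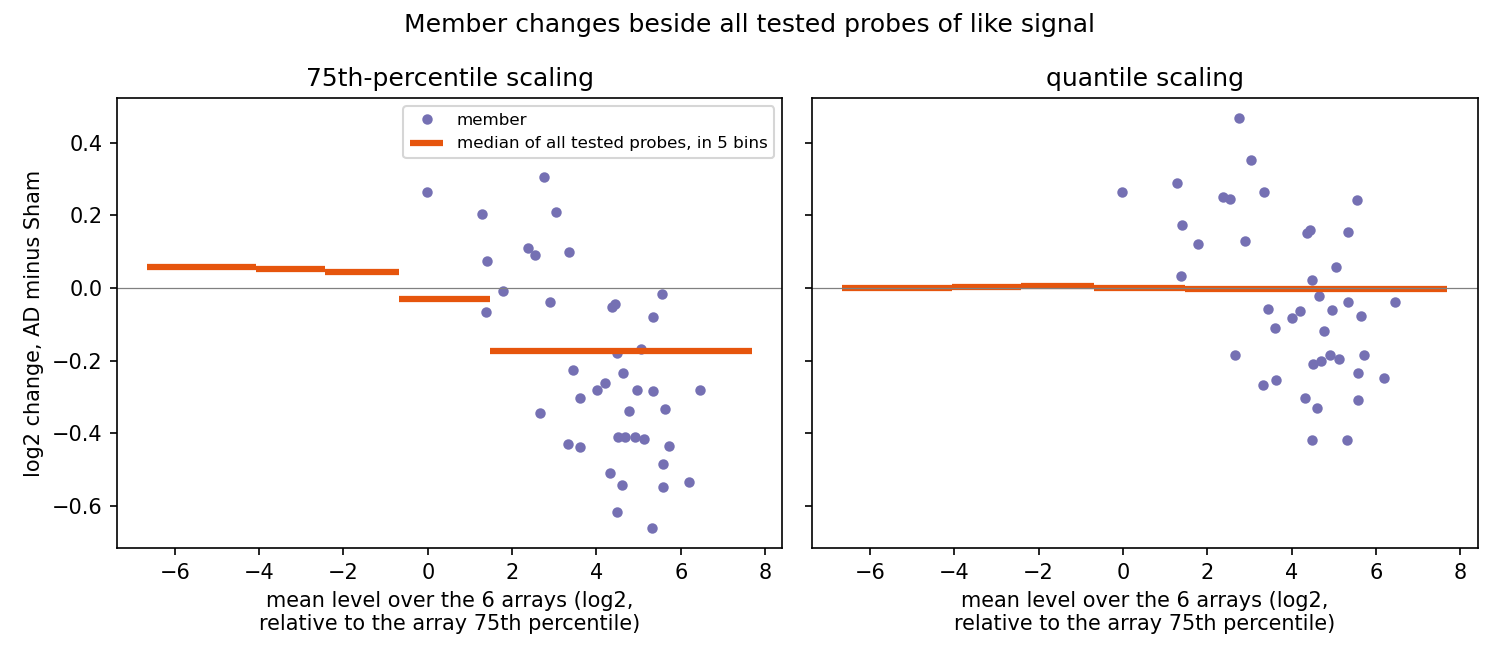
Log2 change (AD minus Sham) against mean level for the tested members other than Cox8b (points) and the median over all tested probes in each of 5 bins of equal size by mean level (bars), under 75th-percentile scaling (left) and quantile scaling (right). In the brightest bin, which holds 38 members, the median over all probes is -0.17 on the left and 0.00 on the right, and the members spread on both sides of it.

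On single arrays, the median over the 43 members of the level minus its Sham mean was -0.27, -0.19 and -0.29 for AD in replicate order, and -0.08, -0.05 and 0.11 for Sham. The groups did not overlap in this median, but Sham replicate 3 stood above the other Sham arrays and held the highest level of 30 of the 43 members. Under quantile scaling the same medians were -0.06, -0.08 and -0.05 for AD and -0.01, -0.01 and 0.01 for Sham. Counting single members, all AD arrays lay below all Sham arrays for 27 members (23.4% of all tested probes did so) and above them for 1 (15.6%). These shares are over probes of all signal levels and were not counted among probes as bright as the members. Under quantile scaling the counts were 16 below (21.8%) and 7 above (16.8%).

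The calls depended on the arrays. Without Sham replicate 3, 9 members fell (10.8% of all tested probes were called lower) and 1 rose (2000 of 22766 tested probes were called higher). The median change of the members was then -0.19, while leaving out any of the other 5 arrays left 0 members called. With scan as a random block, limma called 0 members and 0 probes in all, and 14 members (3668 probes) had an unadjusted p under 0.05.

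The promoters of the 3 members called under both scalings are shown with that of Atp5f1b, a complex V subunit that did not pass the test, to let their sequence be read beside the changes. They run from 250 bases before to 50 bases after the annotated start (RefSeq, GRCr8), 5′ to 3′ on the gene's strand. Capitals mark matches on either strand to the core motifs of NRF1 (GCGCANGCG), GABP and other ETS factors (CCGGAAG), YY1 (AAGATGGCG), ERR (TCAAGGTCA) and Sp1 (GGGCGG), factors known for binding promoters of respiratory chain genes.
Atp5pb (chr2:196123688-196123987, minus strand): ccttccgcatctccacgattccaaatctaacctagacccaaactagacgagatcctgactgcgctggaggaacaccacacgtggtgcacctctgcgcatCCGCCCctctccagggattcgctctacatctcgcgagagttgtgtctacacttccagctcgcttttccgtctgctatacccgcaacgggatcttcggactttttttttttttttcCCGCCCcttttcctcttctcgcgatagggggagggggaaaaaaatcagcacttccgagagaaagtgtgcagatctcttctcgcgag
Cycs (chr4:80984718-80985017, minus strand): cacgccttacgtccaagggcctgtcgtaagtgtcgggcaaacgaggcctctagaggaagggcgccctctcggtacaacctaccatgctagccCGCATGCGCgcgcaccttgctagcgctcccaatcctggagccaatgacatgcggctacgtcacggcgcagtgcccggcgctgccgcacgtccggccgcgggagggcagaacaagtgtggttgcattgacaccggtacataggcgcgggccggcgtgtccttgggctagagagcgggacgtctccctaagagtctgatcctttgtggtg
Atp5mk (chr1:255921998-255922297, minus strand): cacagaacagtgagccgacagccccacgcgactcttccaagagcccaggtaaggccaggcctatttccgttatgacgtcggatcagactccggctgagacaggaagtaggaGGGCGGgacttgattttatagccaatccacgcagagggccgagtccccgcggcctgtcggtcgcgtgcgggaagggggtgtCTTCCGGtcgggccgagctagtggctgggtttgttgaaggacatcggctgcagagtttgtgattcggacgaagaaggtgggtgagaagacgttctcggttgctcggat
Atp5f1b (chr7:1099808-1100107, plus strand): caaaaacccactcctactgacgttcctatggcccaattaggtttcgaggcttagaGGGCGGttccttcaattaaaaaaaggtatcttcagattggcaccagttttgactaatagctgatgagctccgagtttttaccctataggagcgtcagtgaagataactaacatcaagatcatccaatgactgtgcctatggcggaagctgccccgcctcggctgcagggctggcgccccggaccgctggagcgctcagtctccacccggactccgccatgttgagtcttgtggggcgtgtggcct
Atp5pb and Atp5f1b held Sp1 cores, Cycs an NRF1 core, and Atp5mk a GABP and ETS core beside an Sp1 core, so no single motif was present in the 3 called promoters.

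Promoters were found for 36 of the 43 tested members. The GABP and ETS core was in 14 of the 36 (38.9%, against 8.75% of all 33469 promoters of the same length) and the NRF1 core in 9 (25.0% against 5.80%). The Sp1 core was in 15 (41.7% against 33.1%), the YY1 core in 2 (5.56% against 1.73%) and the ERR core in 1 (2.78% against 0.43%). Among the 7 called members with a promoter, 2 held the NRF1 core, 2 the GABP and ETS core and 4 the Sp1 core. These counts describe letters in the window and no binding.

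In complex II, 0 of 4 members were called. Sdhd and Sdhc, the membrane anchor subunits that bind ubiquinone, had the largest changes under 75th-percentile scaling. The level of Sdhd was 3.38, 3.43 and 3.39 in AD (replicates 1, 2 and 3 in this order, here and below) and 3.70, 3.79 and 4.03 in Sham. The groups did not overlap, and its change was -0.44 ± 0.11 (SE, n = 3 per group), just outside the threshold (limma adjusted p = 0.0508; -0.25 under quantile scaling, adjusted p = 0.113). Sdhc was at 4.59, 4.76 and 4.48 in AD and 4.83, 4.90 and 5.11 in Sham. Its change was -0.34 ± 0.12 (adjusted p = 0.117; -0.12 under quantile scaling). Of the catalytic subunits, Sdha, which carries the flavin, changed by -0.04 (0.13 under quantile scaling), and Sdhb, the iron-sulphur subunit, by 0.11 (0.25). Under quantile scaling the change of Sdhc was therefore the smallest of the 4 in size, and that of Sdhb was as large as that of Sdhd. Without Sham replicate 3, Sdhd passed the test (-0.34, adjusted p = 0.0367).

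In complex III, 1 of 8 members fell (12.5%, beside 8.4% of all tested probes and 18.1% of the brightest). Under quantile scaling 0 of the 8 fell. Uqcr10, a small subunit that sits next to the cytochrome c1 and Rieske subunits, was at 5.27, 5.43 and 5.33 in AD and 5.77, 5.72 and 5.99 in Sham. The highest AD value was below the lowest Sham value, and the change was -0.48 ± 0.11 (1.40-fold lower, adjusted p = 0.0395). Under quantile scaling it was -0.23 and not called (adjusted p = 0.106). Uqcrb, which helps to form the ubiquinone-binding pocket, changed by -0.43 (-0.18 under quantile scaling, not called under either). A second, dimmer probe for Uqcrb was at 0.19, 0.22 and 0.09 in AD and 0.77, 0.79 and 0.97 in Sham, a change of -0.67 ± 0.10 (adjusted p = 0.0203) that was also called under quantile scaling (-0.64, adjusted p = 0.0220).

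The core subunits Uqcrc1 and Uqcrc2 changed by -0.07 and -0.23, and the Rieske iron-sulphur protein Uqcrfs1 by -0.30, none of them called. Under quantile scaling these values were 0.03, -0.06 and -0.11. Among the small subunits, Uqcr11 changed by -0.23 (-0.02 under quantile scaling) and the hinge protein Uqcrh by -0.05 (0.15). Uqcrq was the member whose AD arrays all lay above the Sham arrays: its level was 0.05, 0.08 and 0.21 in AD and -0.15, -0.02 and -0.28 in Sham, with a change of 0.26 that was not called (0.27 under quantile scaling).

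Cytochrome c, the small haem protein that carries electrons from complex III to complex IV and can trigger apoptosis when released, is encoded by Cycs. Its level was 4.12, 4.35 and 4.04 in AD and 4.74, 4.81 and 4.81 in Sham. The groups were widely apart, with a change of -0.62 ± 0.11 (1.53-fold lower, adjusted p = 0.0252). Under quantile scaling it remained called (-0.42 ± 0.08, adjusted p = 0.0348). A second probe for Cycs did not show this difference: it was at 2.66, 2.69 and 2.91 in AD and 2.69, 2.85 and 2.62 in Sham (0.03 ± 0.11, adjusted p = 0.868). The call for Cycs therefore rests on 1 of its 2 probes. Many processed copies of Cycs lie in rodent genomes, and reads of such copies by either probe were not tested.

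In complex IV, 2 of 15 tested members fell (13.3%, beside 8.4% of all tested probes and 18.1% of the brightest). Under quantile scaling 0 of the 15 fell. Cox7a2l, which links complexes III and IV in supercomplexes, was at 4.08, 4.09 and 4.06 in AD and 4.49, 4.55 and 4.71 in Sham. The AD arrays were nearly level and all below the Sham arrays (-0.51 ± 0.09, 1.42-fold lower, adjusted p = 0.0273). Cox7b, a small subunit needed for the assembly of the complex, was at 3.09, 3.20 and 3.04 in AD and 3.46, 3.53 and 3.62 in Sham (-0.43 ± 0.09, 1.35-fold lower, adjusted p = 0.0368). Under quantile scaling both lay just outside the threshold, Cox7a2l at -0.30 (adjusted p = 0.0560) and Cox7b at -0.27 (adjusted p = 0.0643).

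Of the other general subunits of complex IV, Cox5a changed by -0.42 and Cox6c by -0.41, and both had groups that did not overlap without being called (-0.20 and -0.20 under quantile scaling). Cox6a1 and Cox7a2 each changed by -0.28 (-0.04 and -0.06 under quantile scaling), and Cox5b by -0.18 (0.02). Cox4i1, the largest nuclear-encoded subunit and a common loading control for mitochondria, changed by -0.08 and Cox8a by -0.02. Under quantile scaling these values were 0.16 and 0.24, neither of them called, and all AD arrays lay above all Sham arrays for Cox8a. Cox6b1 changed by 0.07 (0.17 under quantile scaling). Cox7c scattered from 2.48 to 3.57 in AD and from 2.06 to 3.51 in Sham, so that its change of 0.21 had an SE of 0.46. Under quantile scaling the change of Cox7c was 0.35. The pseudogene Cox6c-ps1 changed by 0.20 on its brighter probe and by 1.25 on the dimmer one (adjusted p = 0.0762). Its changes under quantile scaling were 0.29 and 1.21.

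Among the tissue-restricted members of complex IV, Cox8b, the heart and skeletal muscle form of subunit VIII, was at -1.59, -4.08 and -0.64 in AD and -3.94, -3.94 and -3.91 in Sham, well above background on all 6 arrays. It was high on AD replicates 1 and 3, while AD replicate 2 lay below the Sham arrays. The change of 1.82 ± 0.83 was not called (adjusted p = 0.194), nor was that of 1.79 under quantile scaling. Cox6b2, the testis form of subunit VIb, was at 2.88, 2.96 and 2.88 in AD and 2.39, 2.32 and 3.10 in Sham. Its change was 0.30 (adjusted p = 0.382), and 0.47 under quantile scaling, where it was not called either. Without Sham replicate 3, Cox6b2 was the 1 member that rose (0.55, adjusted p = 0.0202). Cox4i2, the lung form of subunit IV, changed by -0.01 (0.12 under quantile scaling).

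Markers of other tissues were highest on the same arrays as Cox8b, AD replicates 1 and 3. Relative to the Sham mean, Cox8b was at 2.33, -0.15 and 3.29 in AD. The median over 15 skeletal muscle markers was 0.85, 0.65 and 2.37 in AD and 0.00, -0.05 and 0.07 in Sham, without overlap. The median over 9 choroid plexus markers was 3.43, 0.67 and 4.26 in AD and -0.94, 0.05 and 0.69 in Sham, and that over 5 ependymal markers was 0.58, -0.04 and 1.02 in AD and 0.26, -0.05 and -0.32 in Sham. In both of these lists AD replicate 2 lay within the range of the Sham arrays. The summed signal of the muscle markers, in multiples of the 75th percentile, was 11.9 to 18.4 in AD and 10.5 to 10.9 in Sham, and that of the choroid plexus markers 82.3 to 146 in AD and 27.4 to 103 in Sham. The muscle list holds Pvalb, which also marks interneurons and is in the interneuron list below. Pvalb was the brightest muscle marker, at 2.84, 2.89 and 2.96 in AD and 3.06, 3.02 and 2.76 in Sham. Most of the muscle sum on the Sham arrays is therefore Pvalb and is no measure of muscle. A total of 3 of the 15 muscle markers rose, namely Myl11 (2.53), Cox6a2 (1.16), the muscle form of complex IV subunit VIa, and Myh1 (0.97). Under quantile scaling 2 were called, and Myl11 was not (2.49, adjusted p = 0.0514). Over all tested probes, 4.15% were called higher, and 4.26% under quantile scaling. The choroid plexus and ependymal lists had 0 called genes. Their part in the level of Cox8b was not tested.

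**Figure D3:**
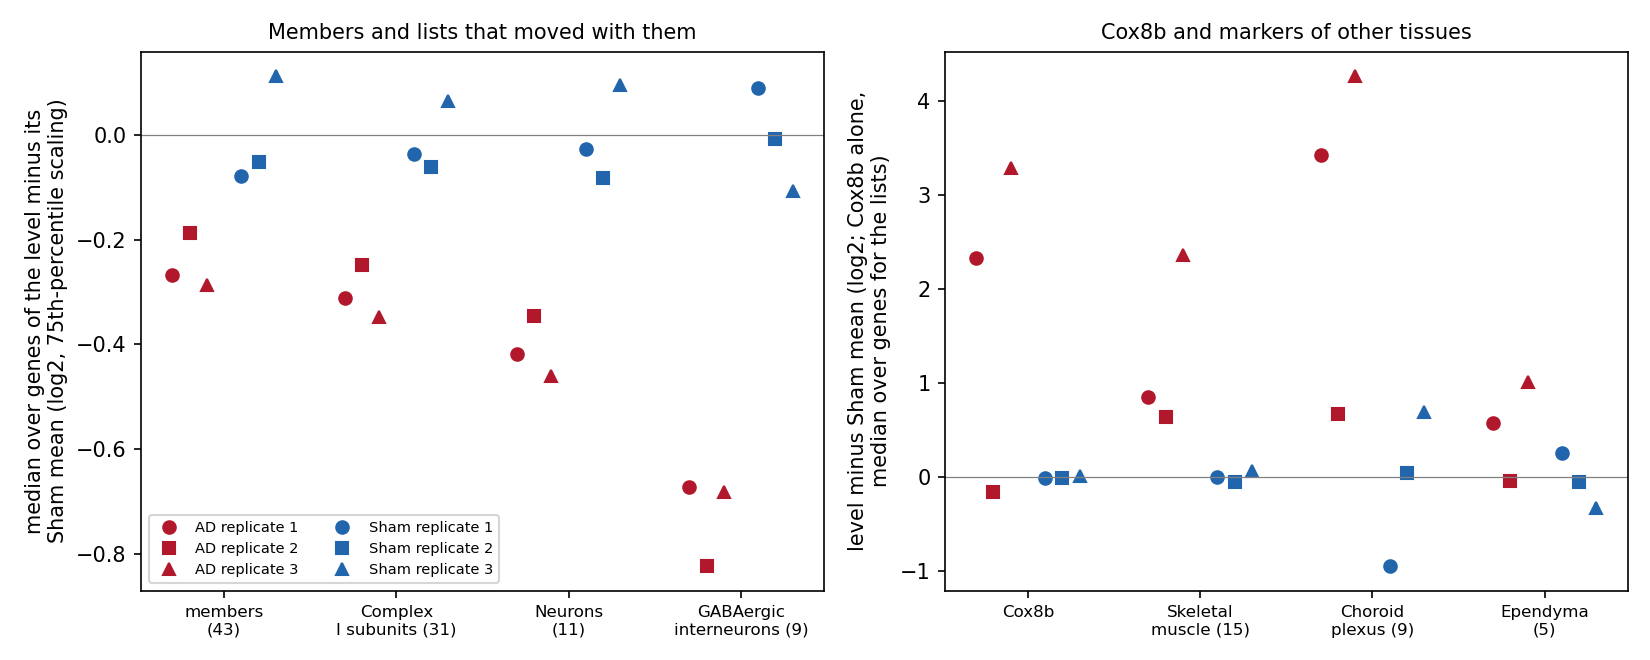
Level minus Sham mean (log2, 75th-percentile scaling) on each array. Left, medians over the 43 members and over complex I, neuronal and interneuron genes, with all AD arrays below all Sham arrays; right, Cox8b alone beside medians over muscle, choroid plexus and ependymal markers, where AD replicates 1 and 3 stand highest for Cox8b.

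In complex V, 4 of 15 members fell (26.7%, beside 8.4% of all tested probes and 18.1% of the brightest). All AD arrays lay below all Sham arrays for 12 of the 15 (23.4% of all tested probes, a share not counted among the brightest). Under quantile scaling 2 of the 15 fell, beside 6.87% of all tested probes called lower. The AD arrays then lay below the Sham arrays for 6 (21.8% of all tested probes) and above them for 3 (16.8%). The alpha subunit Atp5f1a, which forms the F1 head together with the catalytic beta subunit, was at 5.34, 5.33 and 5.28 in AD and 5.85, 5.84 and 5.90 in Sham. Both groups were tight, and the change was -0.55 ± 0.08 (1.46-fold lower, adjusted p = 0.0203), but under quantile scaling it was not called (-0.31 ± 0.10, adjusted p = 0.105). The beta subunit Atp5f1b was at 3.39, 3.46 and 3.35 in AD and 3.38, 3.27 and 3.25 in Sham, with a change of 0.10 (0.26 under quantile scaling). The gamma subunit of the central stalk, Atp5f1c, changed by -0.34, the epsilon subunit Atp5f1e by -0.33 and the delta subunit Atp5f1d by 0.09 (-0.18, -0.08 and 0.24 under quantile scaling), none of them called.

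The peripheral stalk, which holds the F1 head still against the turning rotor, had 2 of its 4 members called. This stands beside 8.4% of all tested probes and 18.1% of the brightest called lower. Under quantile scaling 1 of the 4 was called, beside 6.87% of all tested probes. Atp5pb (subunit b) was at 4.99, 5.02 and 4.95 in AD and 5.56, 5.55 and 5.83 in Sham. It had the largest fall among the members in this fit (-0.66 ± 0.11, 1.58-fold lower, adjusted p = 0.0228) and was also called under quantile scaling (-0.42 ± 0.08, adjusted p = 0.0296), where the fall of Cycs was of the same size. Atp5pd (subunit d) was at 4.27, 4.33 and 4.31 in AD and 4.61, 4.82 and 4.71 in Sham, with a change of -0.41 ± 0.09 (1.33-fold lower, adjusted p = 0.0391). Under quantile scaling its change was -0.21 and not called (adjusted p = 0.210). Atp5po, the oligomycin sensitivity subunit, changed by -0.41 and Atp5pf (subunit F6) by -0.17 without being called (-0.19 and 0.06 under quantile scaling).

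Of the small membrane subunits, Atp5mk, which takes part in joining ATP synthase into dimers, was at 4.36, 4.44 and 4.22 in AD and 4.78, 4.84 and 5.03 in Sham. Its change was -0.54 ± 0.11 (1.46-fold lower, adjusted p = 0.0335), and it was called under quantile scaling too (-0.33 ± 0.07, adjusted p = 0.0432). Its second probe gave a change of -0.48 (adjusted p = 0.0411), with -0.29 under quantile scaling (adjusted p = 0.0650). Atp5me (subunit e) changed by -0.53 (adjusted p = 0.0555) and Atp5mg (subunit g) by -0.28 (-0.25 and -0.04 under quantile scaling). The c-ring genes Atp5mc1 and Atp5mc2, which encode the same mature protein, changed by -0.28 and -0.04, and the inhibitor Atp5if1, which blocks ATP hydrolysis, by -0.26, none of them called. Under quantile scaling the changes of Atp5mc1, Atp5mc2 and Atp5if1 were -0.08, 0.16 and -0.06.

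**Figure D4:**
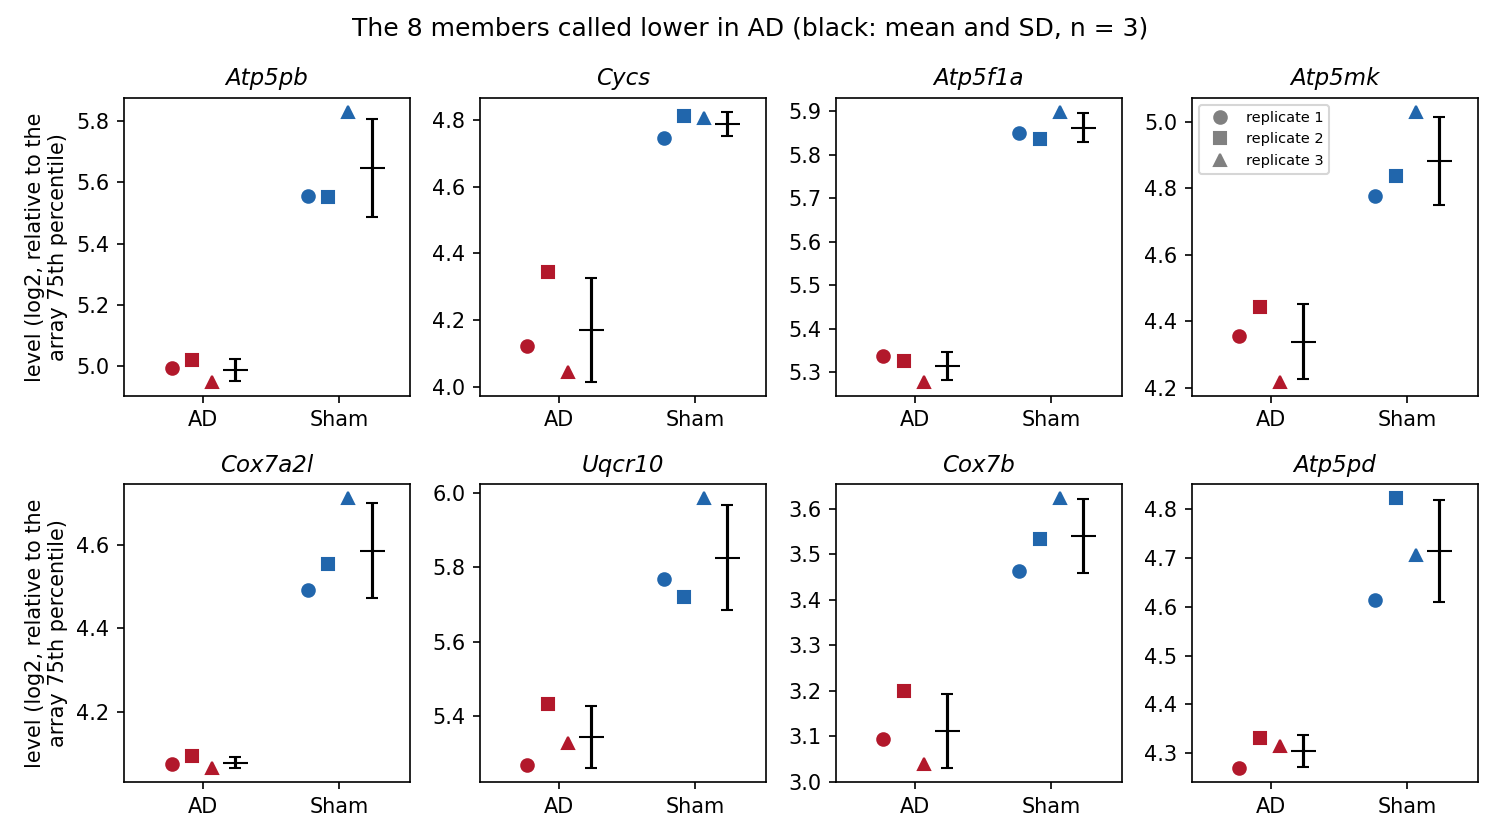
Level (log2, relative to the array's 75th percentile) of the 8 members called lower in AD, on each of the 3 AD and 3 Sham arrays, with mean and SD in black; each panel has its own y axis, which does not start at 0. In each panel all AD arrays lie below all Sham arrays, and Sham replicate 3 is the highest array in 6 of the 8.

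A difference between members on the same array does not depend on the 75th percentile. The trend of the change with signal described above may still enter it where the members differ in brightness. The differences of 6 pairs from the same complex were computed. The pairs were chosen after their values were seen, so they are given as a description, without a test. The level of Atp5f1a minus that of Atp5f1b was 1.95, 1.87 and 1.92 on the AD arrays and 2.47, 2.56 and 2.64 on the Sham arrays, a fall of this difference by 0.65 (0.57 under quantile scaling). The proteins of this pair stand in equal numbers in the F1 head. Within the peripheral stalk, Atp5pb minus Atp5pf was -0.01, 0.03 and 0.01 in AD and 0.53, 0.41 and 0.56 in Sham. The Atp5pb difference changed by -0.49 (-0.48 under quantile scaling). In complex III, Uqcr10 minus Uqcrq was 5.22, 5.35 and 5.12 in AD and 5.92, 5.74 and 6.27 in Sham. These members are of unlike brightness, and the change of their difference was -0.75 (-0.50 under quantile scaling). In complex IV, Cox7b minus Cox4i1 was -2.25 to -2.12 in AD and -1.96 to -1.75 in Sham, and Cox7a2l minus Cox8a was -1.50 to -1.44 in AD and -1.07 to -0.89 in Sham. The 2 complex IV differences changed by -0.35 and -0.49 (-0.42 and -0.55 under quantile scaling). The groups overlapped for Sdhd minus Sdhb in complex II, at 0.72 to 1.17 in AD and 1.12 to 1.96 in Sham, a change of -0.55 (-0.50 under quantile scaling).

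By complex, the median change was -0.19 for complex II, -0.23 for complex III, -0.08 for complex IV and -0.33 for complex V. Under quantile scaling these medians were 0.01, -0.04, 0.12 and -0.08. No difference between complexes was tested.

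Other genes of the pathway were counted in the same fit. The complex I list was taken by symbol (Nduf, a letter and a digit), and its genes, Ndufa4 among them, were not checked as subunits of that complex. Of its 31 genes, 10 fell and 0 rose (median change -0.27), beside 8.4% of all tested probes and 18.1% of the brightest called lower. Ndufa10 (-0.84), Ndufb3 (-0.65) and Ndufb4 (-0.57) changed most. Under quantile scaling 2 of the 31 fell (median change -0.14), beside 6.87% of all tested probes, so that count lay at the background. Of 31 measured assembly factors of complexes II to V, 2 fell (Uqcc4, -0.66, and Sdhaf1, -0.61) and 0 rose. Under quantile scaling 3 were lower. Both counts lay near the background, 8.4% of all tested probes and 6.87% under quantile scaling. Among 13 regulators of mitochondrial genes, Ppargc1a, a coactivator that drives mitochondrial biogenesis, rose (0.44, adjusted p = 0.0402), while Tfam, which packages and transcribes mitochondrial DNA, fell (-0.38, adjusted p = 0.0445). Under quantile scaling Ppargc1a was called (0.40, adjusted p = 0.0460) and Tfam was not (-0.28, adjusted p = 0.0761). These single calls among 13 genes stand beside 8.4% of all tested probes called lower and 4.15% called higher (6.87% and 4.26% under quantile scaling). The median change of the 13 was 0.09 (0.10 under quantile scaling), and 4 of them were below 0 under 75th-percentile scaling.

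Of 13 citrate cycle genes, 2 fell and 1 rose, beside 8.4% of all tested probes called lower and 4.15% called higher. Under quantile scaling 1 fell and 1 rose, beside 6.87% and 4.26%. The subunits of succinyl-CoA ligase moved apart, with Suclg1, common to both forms of the enzyme, at -0.58 and Suclg2, the subunit of the GTP-forming enzyme, at 0.67, and both were called under quantile scaling as well (-0.36 and 0.78). The third called gene was Dld (-0.38). Of 19 other mitochondrial protein genes, 7 fell and 0 rose, beside 8.4% of all tested probes and 18.1% of the brightest called lower. Under quantile scaling 2 were lower, beside 6.87% of all tested probes. The falls were led by the outer membrane channels Vdac2 (-0.85) and Vdac3 (-0.63) and by Letm1 (-0.60), an inner membrane ion exchanger.

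Neuronal markers moved in the same direction as the members. Of 11 measured neuronal markers, 6 fell (median change -0.41; 4 under quantile scaling), and of 9 GABAergic interneuron markers, 5 fell (median change -0.81; 4 under quantile scaling). Over all tested probes, 8.4% were called lower and 4.15% higher (6.87% and 4.26% under quantile scaling). Among the called markers of these lists, the largest falls were those of Elavl4 (-0.73), Syt1 (-0.64) and Nefl (-0.57), and of Vip (-1.34), Dlx1 (-1.06) and Slc32a1 (-0.86). The summed signal, in multiples of the 75th percentile, was 142 to 156 in AD and 176 to 207 in Sham for the neuronal list, and 43.5 to 46.9 in AD and 74.0 to 78.9 in Sham for the interneuron list. Of 9 oligodendrocyte markers, 4 rose (median change 0.27; 4 under quantile scaling), but their summed signal was 106 to 126 in AD and 116 to 168 in Sham, with Mbp, the myelin basic protein gene, at -0.33 and not called. In such tissue samples, fewer cells of a type and less RNA per cell cannot be told apart, and the part of these markers in the members' changes was not tested.

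Of 9 hippocampal pyramidal and granule cell markers, 2 fell (1 under quantile scaling) and the median change was 0.07. The shares over all tested probes were 8.4% called lower and 4.15% called higher. Astrocyte (8), microglial (8) and erythrocyte (4) markers had 0 called genes (1 astrocyte marker, S100b, rose under quantile scaling, 0.42, adjusted p = 0.0446), and 1 of 6 endothelial markers rose (Cldn5, 0.42). The median change was -0.22 for astrocytes (5 of 8 below 0), 0.07 for microglia, -0.57 for erythrocytes and 0.28 for endothelium. Under quantile scaling these medians were 0.05, 0.13, -0.51 and 0.24. A median below 0 under 75th-percentile scaling was therefore not particular to the neuronal lists.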

How the data were processed

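Total RNA from hippocampal tissue was labelled with Cy3 and hybridised by the authors to Agilent rat gene expression arrays. The deposited scanner files hold a background-subtracted intensity per spot, made with Agilent Feature Extraction 11.0.1.1 per the file headers. The authors also deposited a table of log2 values whose scaling is not stated. The medians of its 6 columns were 6.57, and its AD replicate 2 and 3 columns are exchanged relative to the scanner files, which does not affect the group comparison.

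Spots of controls and those carrying an outlier flag (400 to 559 on an array) were dropped, replicate spots were averaged, and log2 processed signals were scaled to the array's 75th percentile. A probe was tested if well above background on at least 3 of 6 arrays (22766 of 30367 probes). Accessions were matched to RefSeq symbols (GRCr8), which named 59.3% of probes. AD and Sham were compared with lmFit and eBayes (limma 3.58.1, R 4.3.3), without covariates, and two-sided p-values were adjusted by Benjamini-Hochberg across every probe tested. The fit was tested on simulated data. Alternatives were other scalings, normexp (on median spot and background signals, offset 50), other filters, array weights, scan, slide position and replicate blocks (statmod 1.5.0), other probes per gene, omission of each array and the methods' t-test. Slide position and quantile scaling combined with blocks or omitted arrays were added after seeing the data, as was the view by bins of signal.

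All members may be named. Values per array are given for called members, for the 2 largest changes in a complex without one, for the tissue-restricted members and, chosen after their values were seen, for other probes and members set against them. From the pathway and cell marker lists, up to 3 called genes are named. The members and lists were chosen with earlier results of these data known.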

Additional observations from a re-analysis of the deposited data

How the results depend on the processing

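The 8 called members and Sdhd, Sdhc and Cox8b kept their direction under the 20 alternatives counted for each member, but the calls did not. The choice of another probe is not among these 20, and the second probe for Cycs changed by 0.03. Of 20 alternatives, Atp5pb and Cycs were called in 11, Atp5mk in 10, Atp5f1a and Cox7a2l in 9, Cox7b and Atp5pd in 7 and Uqcr10 in 6. The number of members called lower (8) became 3 under quantile normalization and with the authors' table, 5 with the 75th percentile over probes detected on all arrays and with normexp, 0 without a filter on dim probes, 13 with probes well above background on all 6 arrays, 14 with an intensity trend and 22 with array weights, a fit that stopped before convergence and gave AD replicate 1 a weight of 8.23. It was 0 with scan as a random block and with slide position as a block, and 0 to 9 when each array was left out in turn. Members called higher (0) became 2 with array weights, 1 with scan day as a fixed block and 0 to 1 on leaving out an array. The median change of the members (-0.28) became -0.058 under quantile normalization, -0.056 with the authors' table, -0.20 with the 75th percentile over detected probes and -0.19 with scan day as a block, which is the comparison without Sham replicate 3, and ranged from -0.31 to -0.19 on leaving out an array. With the gene's dimmest tested probe 8 members were called lower, but they were not the same 8. On that probe Cycs was not called (limma adjusted p = 0.868) and Uqcrb was (adjusted p = 0.0203). The methods' t-test called 6 after Benjamini-Hochberg adjustment and 0 at a fold change of 2 and an unadjusted p under 0.05.

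Over all probes, 2857 calls became 1624 with normexp, 352 without a filter (30297 probes tested), 9870 with array weights, 1848 with the methods' t-test and 4470 with scan day as a block. There were 0 calls with scan as a random block (3668 at an unadjusted p under 0.05) and with slide position as a block (6478), and 0 to 4470 on leaving out an array, with 4470 only without Sham replicate 3. The share of calls that were higher was 33.1%, against 53.2% with the 75th percentile over detected probes and 17.4% with normexp, which moved the median of all probes to -0.14 beside a member median of -0.21. With quantile normalization, leaving out an array gave 0 to 4057 probes, 0 to 4 members called lower, 0 to 1 called higher and a member median of -0.069 to -0.018 (-0.027 without Sham replicate 1), and scan as a random block gave 0 probes (3605 unadjusted) and 0 members. The causes were not tested. Slide was not run as a block of its own, since the headers give slide and scan as 1.

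With the replicate number as a block, 0 probes (6480 unadjusted) and 0 members (16 unadjusted) were called, and 0 and 0 under quantile normalization. Same-numbered arrays correlated at 0.03, 0.07 and 0.14 in their deviations from the group means. AD replicate 1 correlated best with Sham replicate 2 (0.06). The other AD arrays correlated best with the Sham array of their own number. With so few arrays per group, these small correlations cannot decide whether the samples were paired. Signal over background limited 1 member, Cox8c.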
